A study of Drosophila melanogaster with 2 samples.

Results

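The Hippo pathway genes described here are 10 genes of the growth-control pathway of Drosophila melanogaster, taken by name: yki, kibra, Mer, ds, ex, ft, hpo, wts, sd and Diap1. They are 10 of the 13945 protein-coding genes on the chromosome arms that hold peaks, and for each one the gene body and 5 kb either side were searched. The data are ChIP-seq peak lists for CG3065, which belongs to the Sp/KLF group of zinc finger proteins, in whole embryos 0 to 16 hours old of mixed sex. All embryos came from 1 transgenic line that stably expresses CG3065 with GFP at the C-terminus, the precipitation used an anti-GFP antibody, and the samples are 2 biological replicates of this 1 group, with the numbers 1 and 3. Groups were therefore not compared. Whole embryos mix all cell types, so binding in few cells and weak binding in many cannot be told apart, and without read counts in the lists the depth behind a peak is unknown.

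The Hippo pathway limits the size of organs through a chain of kinases. Cell-surface and cortical proteins feed into the kinase Hippo, which acts on the kinase Warts, which phosphorylates the coactivator Yorkie and keeps it out of the nucleus. Nuclear Yorkie binds the DNA-binding protein Scalloped and raises genes of growth and survival, among them Diap1 and, as feedback, ex and kibra. The gene names follow the proteins: ft for Fat, ds for Dachsous, ex for Expanded, Mer for Merlin, hpo for Hippo, wts for Warts, yki for Yorkie and sd for Scalloped.

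The peak lists used are the 2451 peaks that the authors kept after the irreproducible discovery rate (IDR) procedure, called IDR summits here, and the 30000 entries of the relaxed list of both replicates pooled. A relaxed entry need not mark binding, since that list was named as peaks and background. Signal is the authors' value per peak and ranks peaks within a list only. Around the 10 genes there were 12 IDR summits and 106 further relaxed summits, 118 in all. Every one of the 10 genes had a relaxed summit, but 88.1% of all protein-coding genes did. IDR summits were found at 8 genes, with 3 at Diap1, 2 each at yki and kibra, and 1 each at Mer, ds, ex, ft and wts, while hpo and sd had 0. Among all protein-coding genes 33.2% had at least 1 in the same span and 9.78% had 2 or more, but the 10 regions were long, with a median of 27.2 kb against 12.2 kb. With all genes put into 4 bins by region length, the share with an IDR summit was 22.3%, 31.0%, 35.4% and 43.8% from the shortest bin to the longest. Of the 7 Hippo pathway genes in the longest bin 6 had one, and of the 3 in the next bin 2 did, so the counts are to be read against these shares. The longest bin ran from 15.0 to 1976 kb. Its 7 Hippo pathway genes had regions longer than those of 88.5% to 98.9% of all genes, so its share is not matched to their length.

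The DNA under the summits is shown for 6 of the 12 IDR summits, as windows of 50 bp either side that avoid untranslated exons, so that the presence or absence of binding-site words can be seen. Each is 5′ to 3′ on the strand of the named gene, from the Release 6 reference that dm6 shares, with the summit at the middle base. Capitals mark matches to the words searched, which were the Sp and KLF box (CACACCC, the same with G as CACGCCC, and the forms CCCACCC and also CCCGCCC), the DRE core TATCGAT, the GAGA core GAGAG, the Scalloped site core GGAATG and the Zelda core CAGGTA, all on both strands.
ds upstream (chr2L:715511-715611): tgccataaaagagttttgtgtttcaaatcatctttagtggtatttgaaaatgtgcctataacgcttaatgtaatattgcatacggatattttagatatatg
ft downstream (chr2L:4197731-4197831): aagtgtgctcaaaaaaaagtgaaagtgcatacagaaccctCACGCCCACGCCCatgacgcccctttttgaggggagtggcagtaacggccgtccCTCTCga
ex intron (chr2L:442053-442153): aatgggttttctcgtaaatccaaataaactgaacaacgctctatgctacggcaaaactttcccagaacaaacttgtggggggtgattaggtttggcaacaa
kibra promoter (chr3R:14724360-14724460): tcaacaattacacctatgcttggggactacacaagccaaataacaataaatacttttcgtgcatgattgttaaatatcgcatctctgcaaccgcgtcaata
kibra intron (chr3R:14722159-14722259): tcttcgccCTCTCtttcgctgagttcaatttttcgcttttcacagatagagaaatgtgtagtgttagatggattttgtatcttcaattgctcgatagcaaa
Diap1 intron (chr3L:16046125-16046225): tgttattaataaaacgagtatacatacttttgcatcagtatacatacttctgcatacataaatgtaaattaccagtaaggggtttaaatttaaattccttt
The window beyond ft holds the Sp and KLF box in 2 overlapping copies of CACGCCC, which begin 10 and 4 bases before the summit, and a GAGA core. The kibra intron window holds a GAGA core, as CTCTC, and the other 4 windows hold none of the words.

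Over all 12 windows, 2 held the Sp and KLF box, or 16.7%, against 11.3% of the 2451 IDR windows of the same length. The GAGA core was in 3 of 12 (25.0%, against 11.0% of all IDR windows). The Scalloped, DRE and Zelda cores were in 0 of 12, against 3.18%, 4.24% and 1.80% of all IDR windows. Among the 106 weaker summits the Scalloped core was in 10 (9.43%), against 4.35% of the 27549 relaxed summits outside the IDR list, and the Sp and KLF box was in 7 (6.60%, against 9.19%). These are matches of letters in a window and not binding sites, and the shares carry no test.

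**Figure D1:**
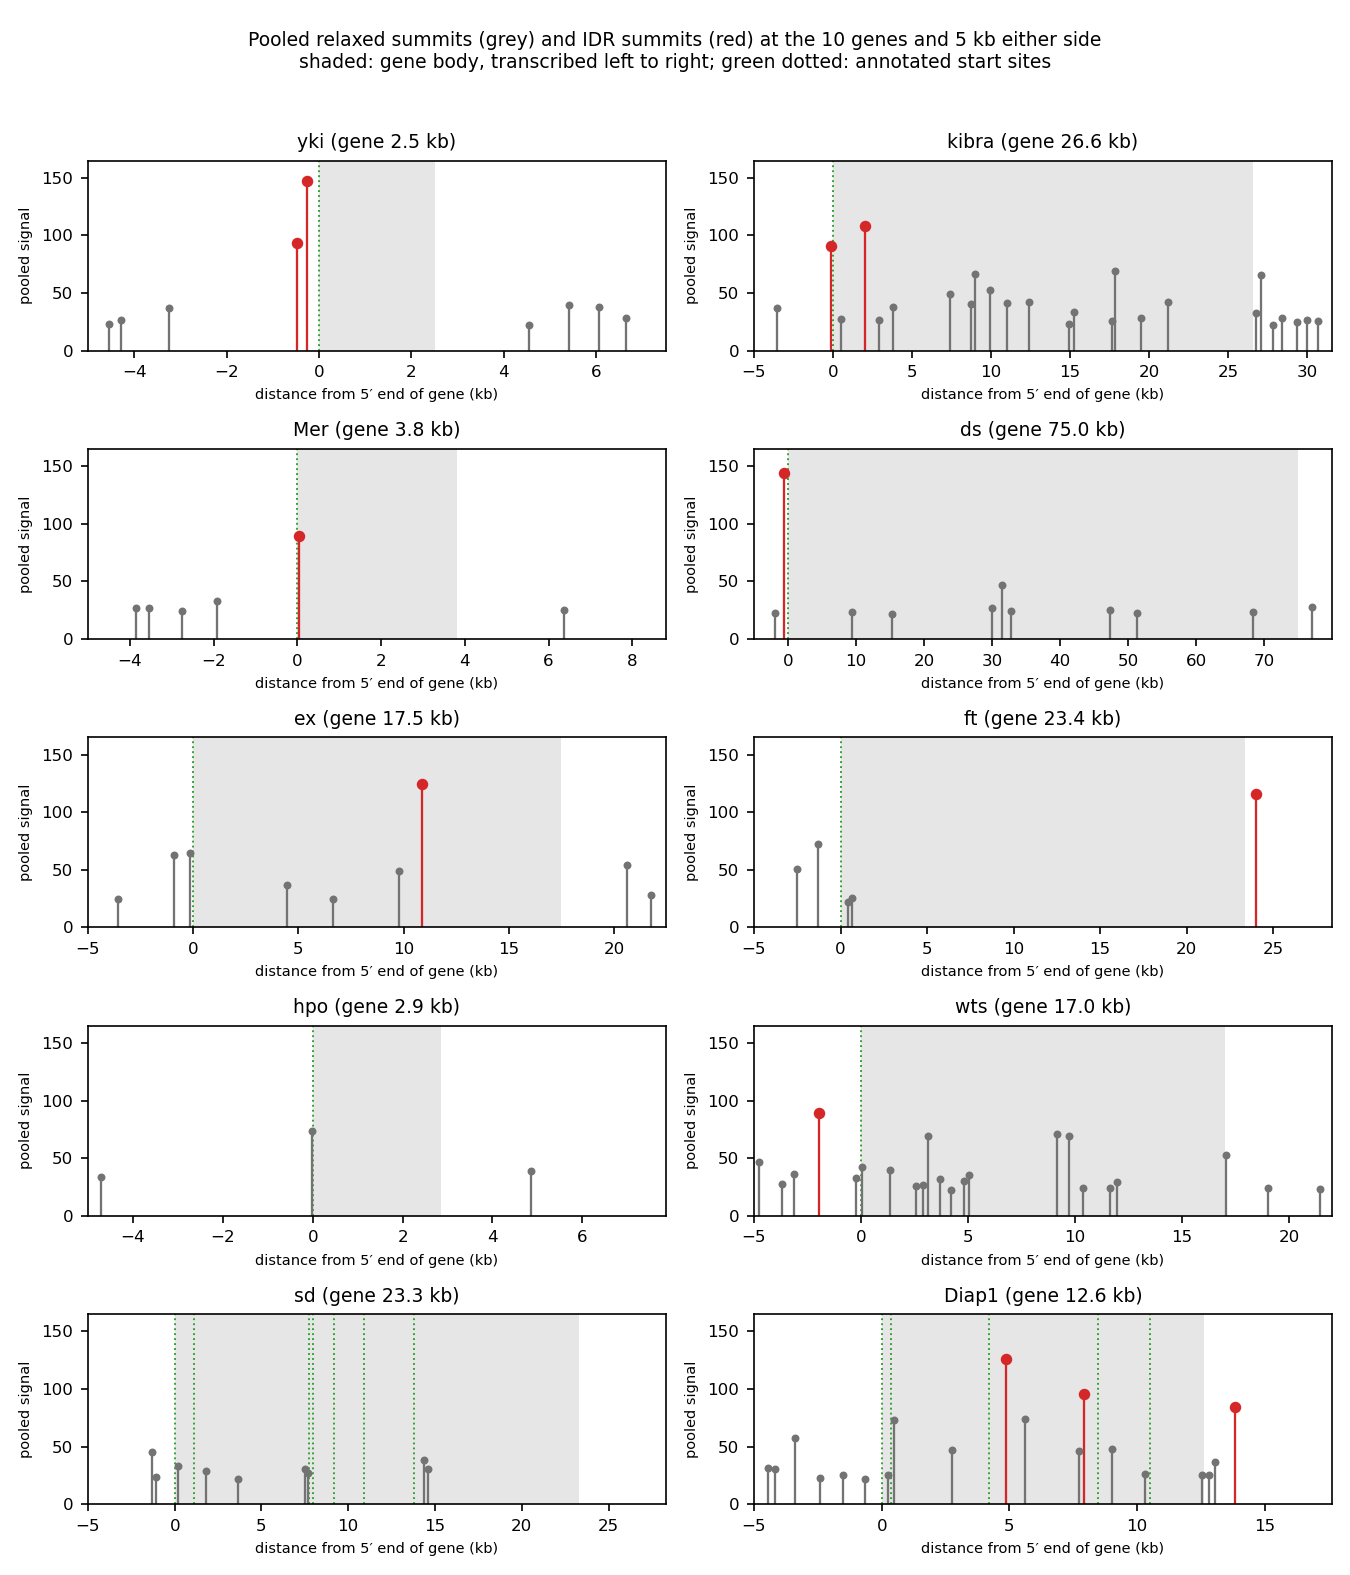
Pooled relaxed summits (grey) and IDR summits (red) at each of the 10 genes and 5 kb either side, with distance from the 5′ end of the gene in kb on the horizontal axis (its own scale in each panel), pooled signal on the vertical axis, the gene body shaded and annotated start sites as green dotted lines. IDR summits sit beside the start of yki, kibra, Mer and ds, inside ex and Diap1, beyond the end of ft and upstream of wts, and hpo and sd show grey summits only.

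ds and ft encode giant atypical cadherins, Dachsous as ligand and Fat as its receptor on the neighbouring cell. ds (2L, 640013 to 714983) is the longest of the 10 genes, at 75.0 kb, and its single IDR summit lay 578 bp upstream of its only start site, just outside the 500 bp promoter window. The signal there was 144 in the pooled list, 91.6 in replicate 1 and 52.5 in replicate 3, at ranks 765, 550 and 1238. No other protein-coding start site was nearer, and no other gene's region held the summit. The 62.5 kb of ds introns held 8 relaxed summits and 0 IDR summits. The strongest of these, 31464 bp inside the gene, had a signal of 46.6. The whole region had 0.129 relaxed summits per kb, the lowest density of the 10 genes.

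ft (2L, 4198404 to 4221796) differed from ds in where its IDR summit lay. The summit was beyond the 3′ end of ft, 24015 bp from its start site, inside the neighbour Naprt and 290 bp from a start site of that gene, which encodes nicotinate phosphoribosyltransferase. Its signal was 116 pooled, 67.7 in replicate 1 and 43.7 in replicate 3. Near the start of ft itself the strongest summit was 1297 bp upstream, with a signal of 72.2 and ranks of 4288 in replicate 1 and 3157 in replicate 3, outside the IDR list. Inside the promoter window of ft there was 1 relaxed summit, at a signal of 22.1 and with no entry within 200 bp in either replicate.

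Expanded, Kibra and Merlin work together at the apical cell cortex, where they bring the kinases together. ex (2L, 431227 to 448701) carried its IDR summit in an intron, 10876 bp downstream of its start site, with a signal of 124 pooled, 56.9 in replicate 1 and 63.2 in replicate 3. This was 1 of 2 IDR summits among the 12 that ranked higher in replicate 3 (839) than in replicate 1 (1632). The start site of crq, which encodes the scavenger receptor Croquemort, lay nearer to it, at 9199 bp, than that of ex. At the ex promoter the relaxed list had 1 summit, 145 bp upstream, at a signal of 64.2. Replicate 1 had it at 63.1 (rank 1326) and replicate 3 had no entry within 200 bp. A further summit 922 bp upstream had a signal of 62.5 and was present in both replicates, at 31.7 and 31.5.

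kibra (3R, 14697689 to 14724261) had an IDR summit 149 bp upstream of its start site and another 2052 bp downstream, in an intron. The intronic summit was the stronger in the pooled list (108 against 90.9) and in replicate 1 (64.2 against 32.1). In replicate 3 the order was the other way (45.8 against 48.1). The promoter summit ranked 5100 in replicate 1 and 1456 in replicate 3. The 20.8 kb of kibra introns held 14 relaxed summits, or 0.672 per kb, of which the strongest outside the IDR list lay 17861 bp from the start at a signal of 69.3. Over body and flanks kibra had 25 relaxed summits, the most of the 10 genes.

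Mer (X, 19689697 to 19693500), the fly counterpart of the human tumour suppressor NF2, is a short gene of 3.80 kb. Its IDR summit lay 38 bp inside the transcript, at a signal of 89.3 pooled, 62.9 in replicate 1 (rank 1335) and 26.8 in replicate 3 (rank 4971). It was the only relaxed summit in the gene body. The other 5 were in the flanks, with signals up to 33.3, and none of the 5 had an entry in both replicates.

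Neither kinase gene had an IDR summit within 500 bp of its own start. hpo (2R, 19493996 to 19496856), the kinase that names the pathway, had 3 relaxed summits and 0 IDR summits. The strongest lay 23 bp upstream of its start site at a signal of 73.2 pooled, 47.4 in replicate 1 and 27.1 in replicate 3. Its pooled rank was 2970, past the 2451 of the IDR list, and its ranks in the replicates were 2386 and 4828. With replicate 3 left out and the 2451 strongest peaks of replicate 1 used in place of the IDR list, hpo gained this summit as its only one.

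wts (3R, 30789625 to 30806619) encodes the kinase that phosphorylates Yorkie. Its IDR summit, with a signal of 89.6 pooled, 63.1 in replicate 1 and 27.3 in replicate 3, lay 1952 bp upstream of the wts start and 46 bp from a start site of cindr, which encodes an adaptor protein. At its own promoter wts had 2 relaxed summits, the stronger at 42.3, 49 bp inside the transcript, and the weaker at 32.6 and nearer to a start site of dj-1beta. Its introns were the most densely covered, with 13 relaxed summits in 11.0 kb, or 1.18 per kb, and 0 IDR summits. The strongest of these, 9146 bp from the start, had a signal of 70.6, and those 9730 and 3105 bp from the start had 69.0 each. These 3 were present in both replicates, as were 8 of all 22 relaxed summits of wts.

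yki (2R, 24065975 to 24068485), which encodes the coactivator, had the strongest IDR summit of the 10 genes. It lay 270 bp upstream of the yki start site at a signal of 147 pooled, 91.9 in replicate 1 and 64.7 in replicate 3, and its rank among all pooled peaks was 726. A weaker IDR summit was listed 199 bp away, 469 bp upstream of the start, at a signal of 93.6. Both took the same entry of replicate 1 as their nearest (91.9), while in replicate 3 the weaker one had its own entry at 20.9 and rank 9151. A start site of Gpat4, a glycerol-3-phosphate acyltransferase gene on the other strand, was 2 bp from the stronger summit. A different start site of Gpat4 was 96 bp from the weaker one, so both summits are nearer to Gpat4 than to yki. The window of the stronger summit holds the Sp and KLF box as GGGTGTG, 42 bases before the summit. The body of yki held 0 relaxed summits, and its flanks held 7 outside the IDR list. The strongest of these 7 lay beyond the 3′ end of yki, inside Rap2l and 19 bp from a start site of that gene, at a signal of 39.6.

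sd (X, 15804370 to 15827682) encodes the TEAD-family protein through which Yorkie reaches DNA. It has 7 annotated start sites and 22 transcripts, and had 0 IDR summits and 9 relaxed ones. The strongest, with a signal of 45.0, lay upstream, 1307 bp from the first start site. It was 94 bp from a start site of PGRP-LE, which encodes a peptidoglycan sensor. In its own promoter windows sd had 3 relaxed summits with signals up to 33.0. Each had an entry within 200 bp in replicate 1 and none had one in replicate 3. Those 238 and 35 bp upstream of a start site took the same entry of replicate 1, at 30.4. Of the 7 start sites, 4 had no relaxed summit within 500 bp.

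Diap1 (3L, 16038410 to 16051034), an inhibitor of caspases that Yorkie is known to raise, had the most IDR summits. Across all protein-coding genes 2.52% had 3 or more. Those of Diap1 that lay in introns had signals of 126 (75.1 in replicate 1 and 54.9 in replicate 3) and 95.6 (56.1 and 31.7). They were 671 bp downstream of one of its 5 start sites and 531 bp upstream of another, both just outside promoter windows of 500 bp. No other gene's region held them. The third lay beyond the 3′ end, inside CG5895, at a signal of 84.2, the weakest of the 12. The Diap1 promoter windows held 3 relaxed summits, of which the strongest, 121 bp inside the transcript, had a signal of 73.3 pooled, 41.1 in replicate 1 and 33.1 in replicate 3. An intronic summit at 73.7 was the strongest of the 106 outside the IDR list, whose weakest peak over the whole genome had 81.3.

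**Figure D2:**
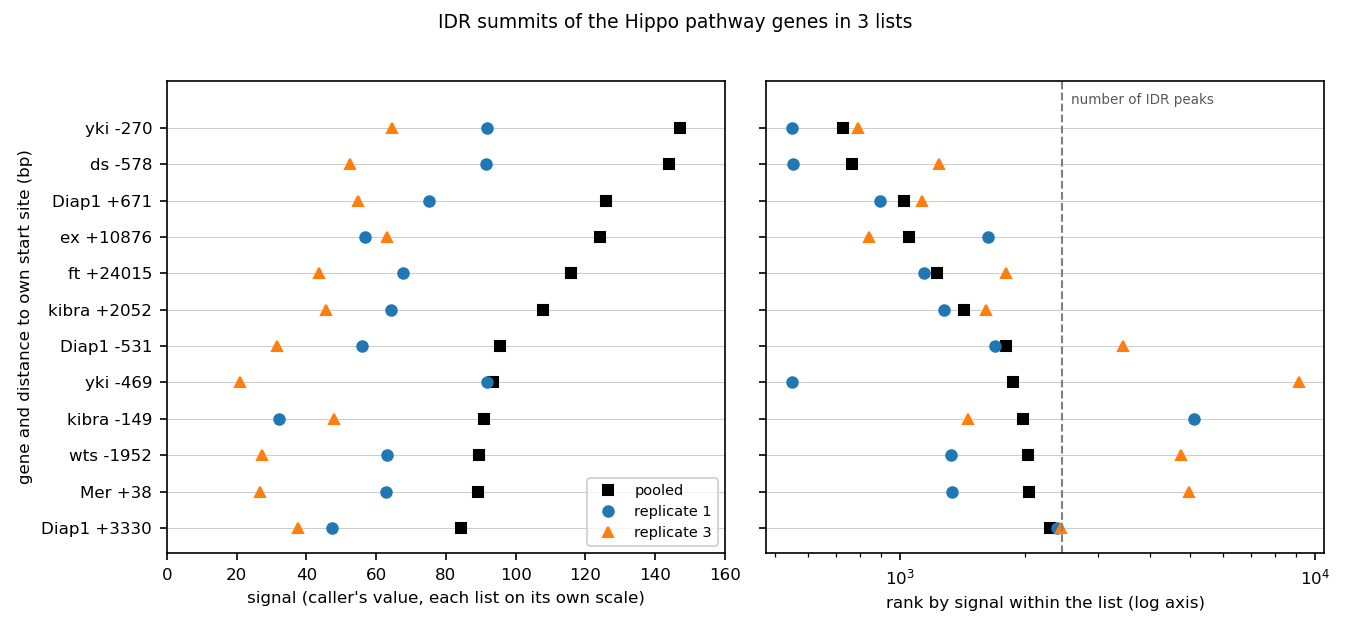
Signal (left) and rank by signal on a log axis (right) of the 12 IDR summits in the pooled list (black squares), replicate 1 (blue circles) and replicate 3 (orange triangles), ordered by pooled signal and named by gene and distance to the nearest own start site in bp. The dashed line marks rank 2451: 11 of 12 lie within it in replicate 1 and 8 in replicate 3.

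All 12 IDR summits had an entry within 200 bp in both replicates. This match was largely set beforehand, since the 2451 IDR peaks are the strongest of the list that pools both replicates. The IDR list is thus a cut by pooled signal. A place in it does not mean a high rank in each replicate, as the weaker yki summit shows (rank 9151 in replicate 3). The 12 summits lay mostly in the weaker part of the IDR list, with signals from 84.2 to 147. Their median was 102, against 116 for the whole list. Of the 12, 4 reached the median of the list, and the pooled ranks of the 12 ran from 726 to 2302. As the plot of signal and rank shows, 11 of them matched a peak among the 2451 strongest of replicate 1, 8 among those of replicate 3 and 7 among both. Those outside in replicate 3 were the weaker yki summit, the Mer and wts summits and the Diap1 summit of signal 95.6, and the kibra promoter summit was outside in replicate 1. Of the 106 weaker summits, 38 had an entry in both replicates, 38 in replicate 1 only, 17 in replicate 3 only and 13 in neither. Neither these shares nor those within the 2451 strongest were computed over all peaks of the lists. When each replicate's 2451 strongest peaks took the place of the IDR list, 7 genes had a summit without replicate 1, where Mer dropped out, and 9 without replicate 3, where hpo came in. A gene could keep its count with a different summit. Without replicate 1, wts lost its IDR summit (rank 4759 in replicate 3) and counted an intronic one (rank 2265). Without replicate 3, kibra lost its promoter summit (rank 5100 in replicate 1) and counted one near the start of Meltrin (rank 1456).

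Promoter summits were denser than intronic ones. The own promoter windows of the 10 genes, 18.6 kb in all, held 4 IDR summits at 3 genes (yki, kibra and Mer), and 12.0% of all protein-coding genes had at least 1 there. Their introns, 132 kb in all, also held 4, at 3 genes (kibra, ex and Diap1), against 4.14% of all genes. These shares take no account of intron length, which came to 58295 kb over all 13945 genes, and the densities do. Per kb this was 0.215 at promoters (95% exact Poisson interval 0.0586 to 0.550) and 0.0303 in introns (0.00827 to 0.0777), a ratio of 7.08 (1.32 to 38.0). Over all protein-coding genes the densities were 0.102 and 0.0145, a ratio of 7.03. With summits under 200 bp apart counted as 1, which merges the yki pair, the promoter density of the 10 genes was 0.161 per kb. The value over all genes with this merging is not given here. Without replicate 1 the promoter density of the 10 genes was 0.107 per kb, at 2 genes. Without replicate 3 it was again 0.215, but at 4 genes, with ex and hpo in and kibra out. For relaxed summits the densities were 0.806 per kb at promoters and 0.372 per kb in introns, a ratio of 2.17 (1.13 to 3.93). Over all genes they were 0.552 and 0.231, a ratio of 2.38. A promoter window held a relaxed summit at 9 of the 10 genes, all but ds, against 49.3% of all genes. An intron held one at 7 of the 10, against 20.2% of all genes, again with no account of intron length. The intervals cover counting error only and treat summits as independent.

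**Figure D3:**
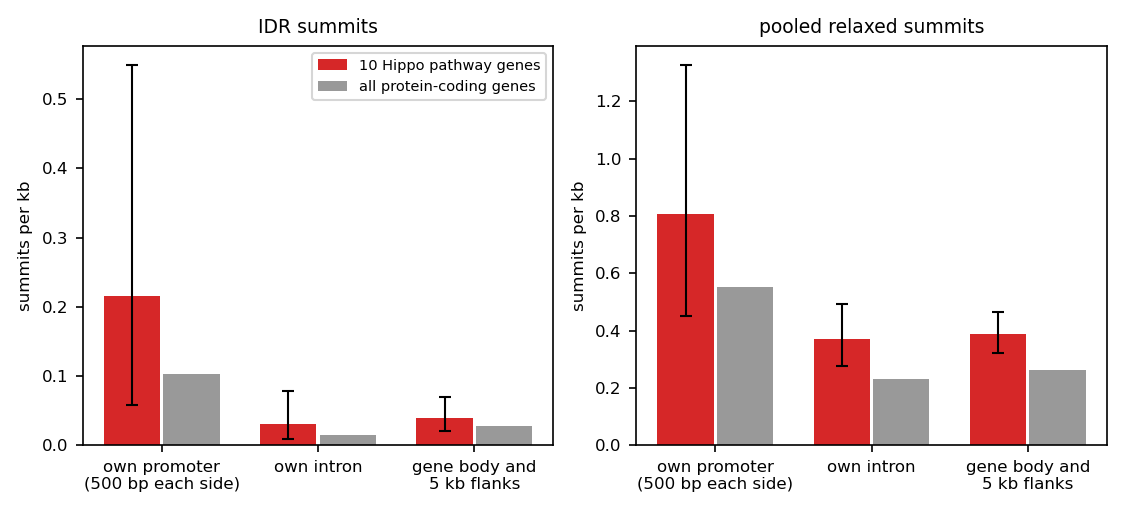
IDR summits (left) and pooled relaxed summits (right) per kb of own promoter window, own intron, and gene body with 5 kb flanks, for the 10 Hippo pathway genes (red, with 95% exact Poisson intervals) and all protein-coding genes (grey). Promoter bars are the highest in both panels, and each IDR interval for the 10 genes spans the grey value beside it. For relaxed summits the promoter interval spans the grey value. The intron interval (0.275 to 0.492) lies above its grey value of 0.231. The interval for body and flanks (0.321 to 0.464) lies above 0.263.

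Counted over body and flanks, the 10 genes had 0.0394 IDR summits per kb (0.0204 to 0.0688), and all protein-coding genes had 0.0277. For relaxed summits the values were 0.387 (0.321 to 0.464) and 0.263, and the medians over genes were 0.381 and 0.259. The spread among the 10 genes was wide. Diap1 (0.840), wts (0.815), yki (0.719) and kibra (0.684) had higher relaxed densities than 99.4%, 99.3%, 98.0% and 97.2% of all genes. ds (0.129) and ft (0.150), the cadherin pair, were above 26.5% and 28.5%. hpo (0.233), sd (0.270), ex (0.328) and Mer (0.435) lay between.

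**Figure D4:**
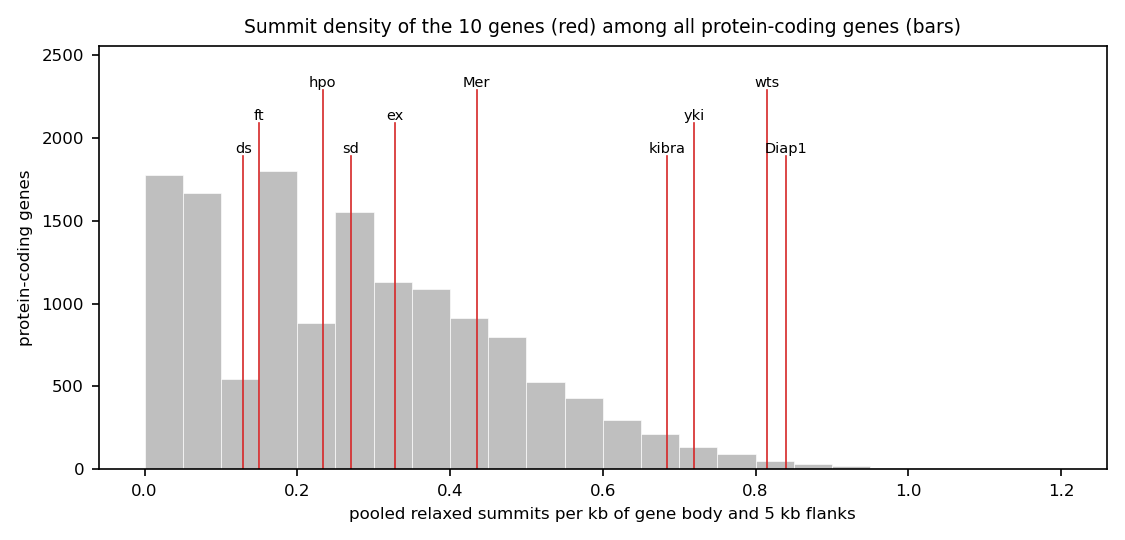
Number of protein-coding genes (bars, bins of 0.05) by pooled relaxed summits per kb of gene body and 5 kb flanks, with the 10 Hippo pathway genes as red lines. ds and ft lie at 0.129 and 0.150, and kibra, yki, wts and Diap1 lie in the right tail from 0.684 to 0.840.

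Many of these summits have another gene nearby. Of the 12 IDR summits, 4 had a start site of a different protein-coding gene at most 500 bp away, namely the yki pair at Gpat4, the ft summit at Naprt and the wts summit at cindr. The member's own start site was the nearest for 6 of the 12, at kibra, Mer, ds and Diap1. These 4 genes are what is left of the 8 when a summit counts only for its nearest start site, a count by which 13.0% of all genes have one in their region. Each IDR summit lay in the regions of 1 to 6 protein-coding genes.

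Other genes of the pathway were taken as 5 lists by role. Of 47 such genes, 24 had an IDR summit in body or flanks (51.1%) and 10 had one within 500 bp of a start site (21.3%). The 47 include a non-coding RNA gene, mir-ban, among the known targets, with 2 IDR summits in its region of 10.1 kb. The genes set beside them are all protein-coding. The shares of all protein-coding genes were 33.2% and 12.0%, and 43.8% in the region for the bin of longest regions, into which the median region of the 47, 21.5 kb, falls. Their density was 0.0319 IDR summits per kb, against 0.0277 for all genes. By role, 2 of 5 genes of the kinase cassette, 8 of 18 upstream, junction or polarity genes, 2 of 5 negative regulators, 5 of 10 partners of Yorkie and Scalloped, and 7 of 9 known targets had one in the region. The median region lengths of these lists were 20.1, 21.8, 15.9, 23.3 and 32.2 kb in the same order, so the list with the highest share also had the longest regions. At promoters the counts were 1, 4, 1, 2 and 2. The strongest promoter summits were those of the cyclin gene CycE (signal 182), the glypican gene dlp (149), mask, which encodes a Yorkie cofactor (148), mts, the catalytic subunit of the phosphatase PP2A (143), and the kinase gene dco (123). They were followed by dlg1 (112) and aPKC (93.8), genes of cell polarity, and the kinase gene hppy (88.9). ed, a cell-adhesion gene, had the most IDR summits in body and flanks, 7 in 94.4 kb, and dlp had 5 in 49.0 kb.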

How the data were processed

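ChIP-seq peaks were deposited for 2 biological replicates of CG3065-GFP embryos, sonicated to 200 to 800 bp per the labels. Per the file records, the deposited narrowPeak lists in dm6 are a relaxed list per replicate (30000 and 26271 peaks), a pooled relaxed list and an IDR list. Aligner, caller, their versions and the cutoff of the IDR step: not given in the sources used here. The signal (column 7) and the -log10 q (column 9) are deposited as the caller gave them; the scaling of the signal is not stated. The 2451 IDR peaks are exactly the strongest of the pooled list. The dm3 lists and control libraries were not used here.

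A summit is column 2 plus column 10, in 1-based dm6. Genes came from Ensembl release 115 (BDGP6 version 54); all 10 had the same span in RefSeq, and 0 peaks ended beyond a chromosome. Promoters reached 500 bp either side of an own start site, and introns exclude exons and promoters of the gene. The nearest replicate summit within 200 bp gave replicate values. On simulated positions placed in the promoters and introns of 200 genes, 400 of 400 planted summits were recovered in their class. The same intervals placed and classed them, so this was largely fixed in advance. It did not cover the matching of replicates. Of 47 other pathway genes, 1 was matched by synonym (dachs).

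The genes, lists and alternatives were chosen with earlier results of these data known. All 10 genes are named, with every IDR summit and the strongest weaker one. A neighbour is named where its start site or body holds a described summit. Of the other pathway genes, the 8 strongest at promoters and the 2 with most IDR summits are named. GGGTGTG at yki, and relaxed summits beyond the strongest, were picked after their values were seen. Python 3.11.15, scipy 1.17.1 and matplotlib 3.10.9 were used.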

Additional observations from a re-analysis of the deposited data

How the results depend on the processing

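Of 66 alternative values for the 9 summary results, 52 stayed within 1.5 times the main count or inside the counting interval, 14 moved and 0 changed sign. With no flank, 4 genes held 5 IDR and 62 relaxed summits. With promoter windows of 1000 bp, 5 genes had a promoter IDR summit. In the stronger part of the IDR list (signal of at least its median, 116, which the ft summit just misses), 4 genes had 4 summits, all 4 in both replicates, 1 gene had a promoter summit, and the densities were 0.0537 per kb of promoter and 0.0131 per kb of region. In that order, these alternatives searched fewer bases, searched more bases and kept fewer peaks. With no flank the IDR density was also lower, at 0.0244 per kb against 0.0394, and why was not tested. With a -log10 q of at least 2, 23 relaxed summits were left and the log2 ratio of promoter to intron density was 2.31 (1.12 in the full list); the cause was not tested. Counting only summits nearest to the gene's own start site, chosen after seeing the data, left 6 IDR summits at 4 genes. Leaving out a replicate gave 7 to 9 genes and 9 to 14 IDR summits, with 2 to 4 genes at promoters and 92 to 123 relaxed summits. The RefSeq annotation, any-base overlap, other match distances and introns away from other start sites moved none of the summary results beyond these bounds. Of 90 alternative counts for single genes 67 were unchanged or within these bounds, and merging summits under 200 bp apart was also chosen after seeing the data. No paired analysis was possible because there is 1 group of samples and no comparison between groups. Unknown depth limits every count, and a gene with 0 IDR summits may be bound below the threshold.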

Other observations

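Some relaxed summits at the 10 genes came in close pairs. Neighbouring summits of a gene were at most 250 bp apart in 12 cases among the 118, with gaps of 199 to 240 bp, under the commonest peak width of 396 bp in the pooled list. sd and Diap1 had 3 such pairs each, kibra and wts 2 each, yki and ft 1 each, and Mer, ds, ex and hpo 0. The share of such pairs over all genes was not computed. In 4 pairs both summits had the same entry of replicate 1 as their nearest, and in 1 pair the same entry of replicate 3.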
